A study of Mus musculus with 7 samples.

Results

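The enzymes examined here are those of the citric acid cycle, in quadriceps femoris muscle of mice that overexpress a mutant form of Twinkle and of wild-type mice. Mitochondrial DNA replication depends on Twinkle as its helicase, and the mutant line is a model of progressive external ophthalmoplegia, a mitochondrial muscle disease. The members were 9 enzyme genes of the cycle, Cs, Idh2, Idh3a, Ogdh, Dlst, Sucla2, Suclg1, Fh1 and Mdh2, chosen by name, with every probe set annotated to 1 of these symbols. They made up 9 of 18193 genes tested and 22 of 45101 probe sets on the array. The 3 mutant mice carried the labels mutant Twinkle overexpressor and were 24, 24 and 21 months old (replicates 1 to 3). The 4 wild-type mice were 26, 24, 21 and 23 months old (replicates 1 to 4). Each sample was hybridised to 1 single-colour array, and the arrays within a group are labelled as biological replicates. The promoter that drives the transgene, the strain and the sex are not given in the sources used here. Groups are given as labelled. The question is whether transcripts of the cycle's enzymes differ between mutant and wild-type muscle, and how they vary from mouse to mouse.

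The citric acid cycle runs in the mitochondrial matrix and oxidises the acetyl groups made from pyruvate and fatty acids to carbon dioxide. Its dehydrogenases pass electrons to NADH and FADH2, which feed the respiratory chain that mitochondrial DNA helps to encode. Muscle that relies on oxidative fuel use is rich in these enzymes, and citrate synthase activity is a common measure of mitochondrial content. All values below are deposited log2 values, set against the median of the same probe set in the 7 arrays. They show differences between arrays and hold no levels, so enzymes cannot be compared with each other in amount. A rough level was read from the spacing of the deposited numbers, and it placed all 9 enzymes in the highest class, between 8 and 16 on the log2 scale. In bulk muscle, fewer cells of a type and less RNA per cell cannot be told apart.

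The proximal promoters of 4 enzymes are shown because these genes either ordered the arrays in opposite ways (Idh2 and Dlst against Mdh2) or held a motif of a factor known for driving oxidative metabolism (Ogdh). RefSeq sequences (GRCm38.p6) were matched for 8 of the 9 members, in 13 windows of 250 bases before to 50 after a transcript start, 6 of them for Ogdh and overlapping in part. The windows shown are Idh2 at chr7:80115301-80115600 (minus strand), Dlst at chr12:85110583-85110882 (plus strand), Mdh2 at chr5:135778399-135778698 (plus strand) and Ogdh at chr11:6291920-6292219 (plus strand). Capitals mark matches on either strand to AAGGTCA (the half-site bound by oestrogen-related receptors), the palindromic NRF1 site, CCGGAAGT (GABP) and GGGCGG (Sp1).
Idh2: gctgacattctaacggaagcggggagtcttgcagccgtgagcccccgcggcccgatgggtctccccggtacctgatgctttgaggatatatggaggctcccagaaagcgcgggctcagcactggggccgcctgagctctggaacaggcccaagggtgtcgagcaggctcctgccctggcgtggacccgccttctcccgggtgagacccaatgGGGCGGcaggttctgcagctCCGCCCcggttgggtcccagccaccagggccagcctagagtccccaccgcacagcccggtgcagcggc
Dlst: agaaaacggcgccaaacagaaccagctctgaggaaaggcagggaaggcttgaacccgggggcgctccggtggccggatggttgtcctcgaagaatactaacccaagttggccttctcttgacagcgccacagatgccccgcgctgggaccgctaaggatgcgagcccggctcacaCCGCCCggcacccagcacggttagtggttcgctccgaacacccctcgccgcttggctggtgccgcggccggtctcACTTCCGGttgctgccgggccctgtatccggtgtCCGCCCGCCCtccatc
Mdh2: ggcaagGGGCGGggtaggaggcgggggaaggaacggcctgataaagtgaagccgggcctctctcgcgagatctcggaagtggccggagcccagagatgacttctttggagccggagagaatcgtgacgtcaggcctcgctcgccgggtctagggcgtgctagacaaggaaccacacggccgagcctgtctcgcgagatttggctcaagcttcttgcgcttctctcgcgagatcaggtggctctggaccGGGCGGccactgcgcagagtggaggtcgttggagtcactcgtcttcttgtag
Ogdh: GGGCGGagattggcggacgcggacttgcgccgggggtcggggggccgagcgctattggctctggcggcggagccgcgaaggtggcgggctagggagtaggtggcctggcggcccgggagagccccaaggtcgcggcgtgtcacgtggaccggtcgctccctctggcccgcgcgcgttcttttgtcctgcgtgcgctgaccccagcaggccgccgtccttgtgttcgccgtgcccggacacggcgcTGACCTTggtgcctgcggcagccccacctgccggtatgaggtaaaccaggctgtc
In Ogdh the second run of capitals, at the annotated start, is the only AAGGTCA match (read on the minus strand) among the 13 windows, and 4.72% of all 32851 promoter windows held one. CCGGAAGT occurred in 1 window, that of Dlst, against 3.89% of all windows. The NRF1 site occurred in 0 of the 13 against 0.971% of all. GGGCGG occurred in 10 of the 13, in 7 of the 8 genes (all but Suclg1), against 35.7% of all windows, and in Dlst a pair of its matches overlap. A match to these letters is a description of the window and not a measured binding site.

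Before the values, the arrays themselves need describing. The leading principal component over all 18193 genes held 52.3% of the variance between arrays and did not follow genotype. Mutant replicate 2 (score -0.51), wild-type replicate 1 (-0.44) and wild-type replicate 4 (-0.22) had negative scores, and those of the other 4 arrays ran from 0.075 to 0.59. The sets of 3 and 4 arrays used below are split by this sign alone. The scores are spread along a range, with wild-type replicate 4 and mutant replicate 3 (0.075) nearest the cut. The probe set of Twnk, the gene of Twinkle, read -0.15, 0.44 and 0.00 in mutant and 0.34, -0.13, -0.14 and 0.15 in wild-type muscle, a log2 difference of 0.040 ± 0.18 (SE). Whether it lies in the transgene's transcript is not known here, so it neither bears out the labels nor goes against them. All 10 general muscle fibre markers lay in the highest level class and 0 of 8 measured cerebellum markers did, although the free-text descriptions name cerebellum. Most slow fibre genes were far lower in wild-type replicates 1 and 2 (list means -2.69 and -1.87) than in the other 5 arrays (-0.18 to 0.68). Of that list, Csrp3 was highest in wild-type replicate 1 (1.41) and lowest in replicate 2 (-1.85), and Myh7b measured only -0.17 and 0.00 there. In wild-type replicate 3 the Gapdh control, which reports RNA integrity, had a 5 prime minus 3 prime value of -0.55 against -0.040 to 0.094 in the others. The same value of beta-actin was 0.12 in that array, within the -0.14 to 0.12 of the others. In mutant replicate 1 the 18S ribosomal RNA controls averaged 3.19 against -0.77 to 0.56.

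The citric acid cycle enzymes did not differ detectably between mutant and wild-type muscle. With limma, 0 of the 9 members had an adjusted p under 0.05, where the share called over all genes was 0.0%, and 0 of 9 had an unadjusted p under 0.05, where that share was 1.46% (265 genes). In 0 of 9 did all mutant arrays lie above or all below the wild-type arrays, against 0.841% and 1.2% of all genes. The log2 differences ran from -0.10 (Ogdh) to 0.18 (Idh2), or 0.932-fold to 1.13-fold, with 4 positive and 5 negative. Their median was -0.00066, beside -0.010 over all genes tested and 0.018 over the 3772 genes of the highest level class. The widths of the intervals differ greatly between members. For Fh1 the 95% interval of the log2 difference ran from -0.15 to 0.21, so larger changes of this transcript lie outside it, whereas for Idh2 it ran from -0.94 to 1.29.

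**Figure D1:**
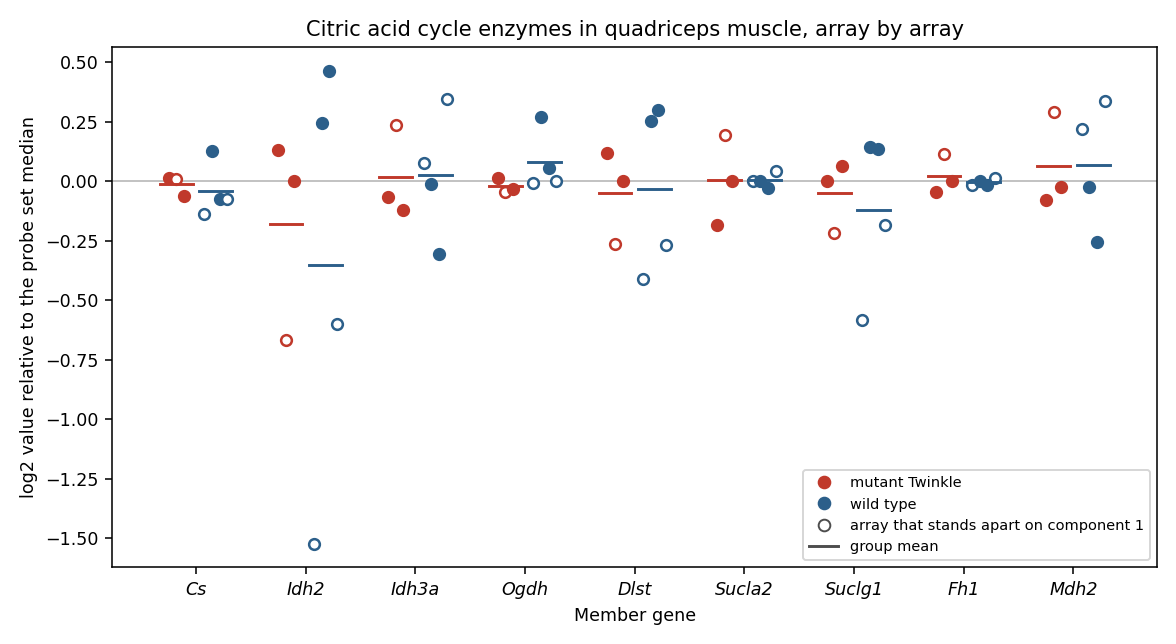
Log2 values of the 9 enzymes relative to the probe set median (y axis) for each gene (x axis), with 1 point per array, red for the 3 mutant and blue for the 4 wild-type arrays, and bars for group means. Open points are mutant replicate 2 and wild-type replicates 1 and 4. The groups overlap for every enzyme, Idh2 spreads furthest (down to -1.52 in wild-type replicate 1), and Fh1 stays between -0.044 and 0.11.

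Citrate synthase (Cs), which joins acetyl-CoA to oxaloacetate and opens the cycle, was among the steadier members. It measured 0.016, 0.0084 and -0.061 in mutant muscle and -0.14, 0.13, -0.076 and -0.075 in wild-type muscle. Wild-type replicates 1 and 2 were the lowest and the highest array, and all mutant values lay between them. The group values were -0.012 ± 0.042 (SD, n = 3) and -0.040 ± 0.12 (SD, n = 4), a log2 difference of 0.028 ± 0.091 (SE; 95% interval -0.19 to 0.24; limma adjusted p = 1.00, exact permutation p = 0.714). Of the 3772 genes in the highest level class, only 7.10% varied less over the 7 arrays than Cs did. This small spread belongs to the mean of 3 probe sets, which ordered the arrays differently. Probe set 1422577_at was lowest in wild-type replicate 1 (-0.35), 1422578_at in wild-type replicate 4 (-0.22) and mutant replicate 2 (-0.21), and 1450667_a_at in wild-type replicate 3 (-0.24). Their differences between groups were 0.076, -0.048 and 0.055.

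The isocitrate dehydrogenases, which release the first carbon dioxide of the cycle, include the most variable member. Idh2, the NADP-linked enzyme of the matrix that supplies NADPH for antioxidant defence, measured 0.13, -0.67 and 0.00 in mutant muscle and -1.52, 0.25, 0.46 and -0.60 in wild-type muscle. The 3 lowest arrays were wild-type replicate 1, mutant replicate 2 and wild-type replicate 4, so low values occurred in both genotypes. Its range of 1.99 on the log2 scale was the widest of the 9, and 97.0% of the genes in the highest level class varied less. The group values were -0.18 ± 0.43 (SD, n = 3) and -0.35 ± 0.90 (SD, n = 4), a log2 difference of 0.18 ± 0.48 (SE; limma adjusted p = 1.00, exact permutation p = 0.83). Without wild-type replicate 1 the difference was -0.21. A second Idh2 probe set, 1453601_at in the lowest level class, did not share the pattern, with values from -0.20 to 0.24 and 0.00 in wild-type replicate 1.

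Idh3a is the catalytic subunit of the NAD-linked isocitrate dehydrogenase, the enzyme that carries the forward flux of the cycle. Its values were -0.064, 0.24 and -0.12 in mutant muscle and 0.076, -0.011, -0.31 and 0.34 in wild-type muscle. Here wild-type replicate 4 and mutant replicate 2 were the highest arrays and wild-type replicate 3 the lowest, so these arrays stood at the opposite ends from those they held for Idh2. The log2 difference was -0.0085 ± 0.17 (SE; 95% interval -0.40 to 0.38). The 3 probe sets averaged for it differed by 0.11, 0.0035 and -0.14. Probe set 1447701_x_at, in the middle level class between 4 and 8, had the smallest p of all 22 member probe sets (difference -0.26 ± 0.12, unadjusted p = 0.0643, limma adjusted p = 1.00), with -0.41 in mutant replicate 2 and wild-type values from 0.00 to 0.19. Idh3b and Idh3g, the other subunits of the same enzyme, differed by 0.027 ± 0.091 and 0.0042 ± 0.11, with values over the 7 arrays from -0.11 to 0.15 and from -0.14 to 0.16.

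The 2-oxoglutarate dehydrogenase complex is built from a dehydrogenase (Ogdh), a succinyltransferase core (Dlst) and a lipoamide dehydrogenase (Dld) that it shares with pyruvate dehydrogenase. Ogdh measured 0.013, -0.046 and -0.031 in mutant and -0.0069, 0.27, 0.057 and 0.00 in wild-type muscle. Wild-type replicate 2 alone was high, and the mutant arrays lay within 0.059 of each other. The log2 difference of -0.10 ± 0.095 (SE; 95% interval -0.32 to 0.12; unadjusted p = 0.317, exact permutation p = 0.20) was the most negative among the members and was -0.038 without wild-type replicate 2. A second probe set, 1445632_at in the class between 4 and 8, gave 0.10 ± 0.18, the opposite sign, with -0.35 in wild-type replicate 2.

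Dlst measured 0.12, -0.27 and 0.00 in mutant and -0.41, 0.26, 0.30 and -0.27 in wild-type muscle. Its 3 lowest arrays were those of Idh2, namely wild-type replicate 1, wild-type replicate 4 and mutant replicate 2. The log2 difference was -0.017 ± 0.20 (SE; 95% interval -0.50 to 0.46). Its 3 further probe sets, in lower level classes, differed by -0.038, 0.014 and 0.081. Dld went the other way from array to array. It measured -0.063, 0.43 and 0.00 in mutant and 0.30, -0.016, -0.19 and 0.59 in wild-type muscle, and the 3 highest arrays of Dld were the 3 lowest of Dlst. Its log2 difference was -0.048 ± 0.21, so both subunits lacked a difference between genotypes that exceeded the spread within them.

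Succinyl-CoA ligase, which makes ATP or GTP from succinyl-CoA, pairs the alpha subunit Suclg1 with either Sucla2 (the ATP-forming beta subunit) or Suclg2 (the GTP-forming one). Sucla2 loss is itself a cause of mitochondrial DNA depletion in people. Sucla2 measured -0.18, 0.19 and 0.00 in mutant muscle and 0.00, 0.00, -0.027 and 0.044 in wild-type muscle. The wild-type arrays lay within 0.071 of each other, and mutant replicates 1 and 2 lay below and above all of them. The group values were 0.0035 ± 0.19 (SD, n = 3) and 0.0042 ± 0.029 (SD, n = 4), a log2 difference of -0.00066 ± 0.10 (SE; 95% interval -0.24 to 0.24). Both other Sucla2 probe sets lay in the class between 2 and 4 and differed by 0.017 and -0.040.

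Suclg1 measured 0.00, -0.22 and 0.064 in mutant and -0.58, 0.14, 0.14 and -0.18 in wild-type muscle. Wild-type replicate 1 was lowest, and the 3 lowest arrays were again those of Idh2 and Dlst. The log2 difference was 0.071 ± 0.19 (SE; 95% interval -0.37 to 0.52) and was -0.083 without wild-type replicate 1. Suclg2 was tied at its probe set median of 0.00 in all 3 mutant arrays, ranged from -0.32 to 0.16 in wild type and differed by 0.035 ± 0.12. The cause of this tie was not tested, and it should not be read as a small spread between mutant mice.

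Succinate dehydrogenase, complex II of the respiratory chain, oxidises succinate to fumarate and is the one cycle enzyme in the inner membrane. Its 4 subunit genes belong to the comparison list. Sdhd, a membrane anchor, measured 0.00, -0.61 and 0.040 in mutant and -0.44, 0.25, 0.21 and -0.36 in wild-type muscle, with the same 3 lowest arrays as Idh2. Its log2 difference was -0.11 ± 0.24. Sdha and Sdhb, the catalytic and iron-sulphur subunits, differed by 0.045 ± 0.087 and 0.077 ± 0.10, and Sdhc, the other anchor, by 0.015 ± 0.16.

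Fumarase (Fh1), which hydrates fumarate to malate, was the steadiest member. Its values were -0.044, 0.11 and 0.00 in mutant and -0.016, 0.00, -0.015 and 0.015 in wild-type muscle. Mutant replicate 2 was the highest array, and the wild-type arrays lay within 0.031 of each other. Only 2.39% of the genes in the highest level class varied less over the arrays. The group values were 0.023 ± 0.082 (SD, n = 3) and -0.0041 ± 0.014 (SD, n = 4), a log2 difference of 0.027 ± 0.077 (SE).

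Malate dehydrogenase (Mdh2), which regenerates oxaloacetate and also serves the malate-aspartate shuttle, closes the cycle. It measured -0.077, 0.29 and -0.023 in mutant and 0.22, -0.025, -0.26 and 0.34 in wild-type muscle. Wild-type replicate 4, mutant replicate 2 and wild-type replicate 1 were its 3 highest arrays, the same that were lowest for Idh2. The group values were 0.064 ± 0.20 (SD, n = 3) and 0.069 ± 0.26 (SD, n = 4), a log2 difference of -0.0048 ± 0.17 (SE; 95% interval -0.39 to 0.39; exact permutation p = 1.00). Both probe sets lay in the highest level class and ordered the arrays alike at the top, and 1433984_a_at ranged over 0.85 where 1416478_a_at ranged over 0.34.

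**Figure D2:**
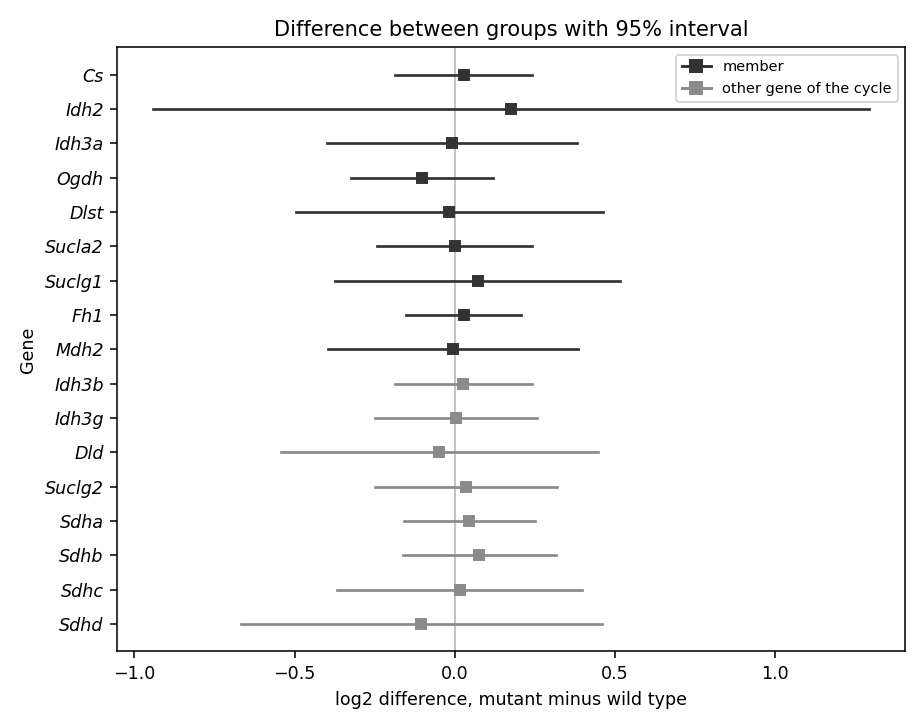
Log2 difference, mutant minus wild type (x axis), for the 9 members in black and 8 other genes of the cycle in grey (y axis), with 95% intervals from limma. Every interval includes 0, and that of Idh2 is the widest, from -0.94 to 1.29.

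**Figure D3:**
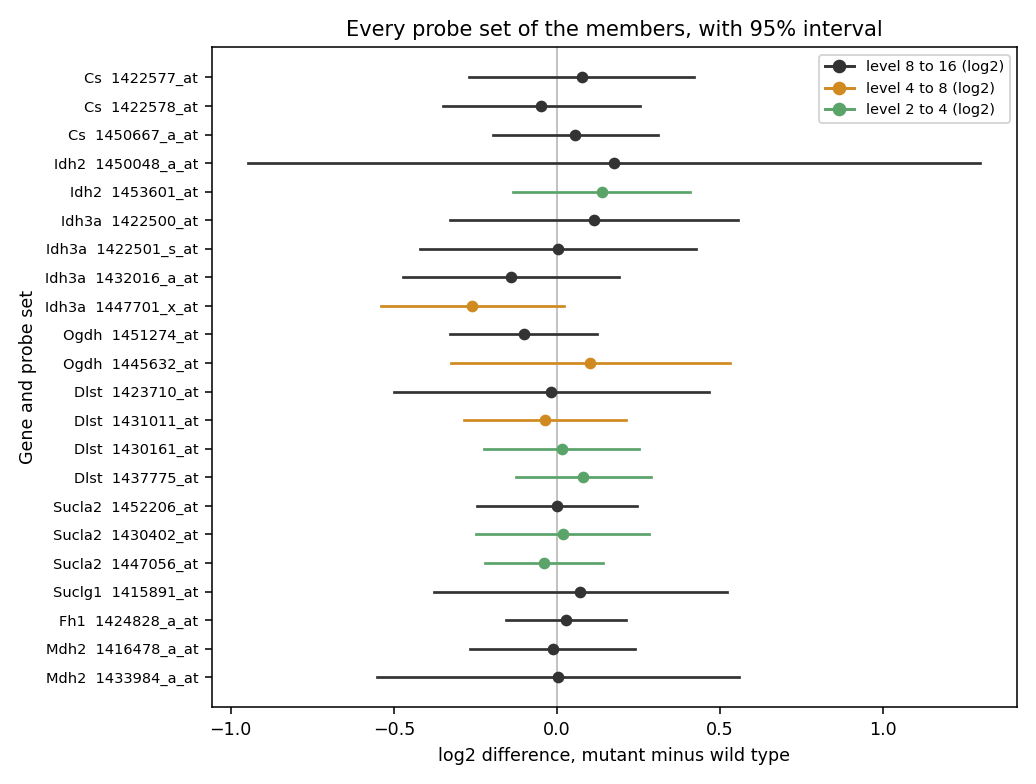
Log2 difference, mutant minus wild type (x axis), for each of the 22 member probe sets (y axis) with its 95% interval, coloured by the level class read from the number spacing. The estimates lie between -0.26 (Idh3a, 1447701_x_at) and 0.18 (Idh2, 1450048_a_at).

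At the level of probe sets, 14 of the 22 lay in the highest class, 3 between 4 and 8 and 5 between 2 and 4. In the fit over all 34945 probe sets with 1 symbol, 0 of the 22 had an adjusted p under 0.05, where the share over all was 0.0%, and 0 of 22 had an unadjusted p under 0.05, where it was 1.79%. Without mutant replicate 1, 1 of the 22 had an unadjusted p under 0.05, where the share over all was 3.14%. Their differences ran from -0.26 to 0.18. Probe sets of 1 gene gave differences of both signs for Cs, Idh3a, Ogdh, Dlst, Sucla2 and Mdh2. Only for Idh2 did more than 1 probe set give the same sign throughout, and Suclg1 and Fh1 have a single probe set each.

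Array by array, 5 of the 9 members fell into opposite orders that cut across genotype, and Cs, Ogdh, Sucla2 and Fh1 followed neither. Mutant replicate 2 and wild-type replicates 1 and 4 were the 3 lowest arrays for Idh2, Dlst and Suclg1 and the 3 highest for Idh3a and Mdh2, so 5 of 9 members had them at an end. Among the 8 other cycle genes they were lowest for Sdhc and Sdhd and highest for Dld. The component whose sign picked these arrays was computed over all genes, the members among them. Of all genes tested, 20.8% (3787 genes) had the same arrays at an end, 11.1% below and 9.72% above the other 4. In the highest level class, which holds all 9 members, 35.5% did, 17.1% below and 18.4% above. The pattern is thus common on these arrays and not particular to the members. The mean over the 9 members was -0.0095, -0.039 and -0.019 in mutant muscle and -0.26, 0.11, 0.030 and -0.043 in wild-type muscle. Wild-type replicate 1 was lowest, held the lowest value of 4 members, and had a mean of -0.11 without Idh2.

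**Figure D4:**
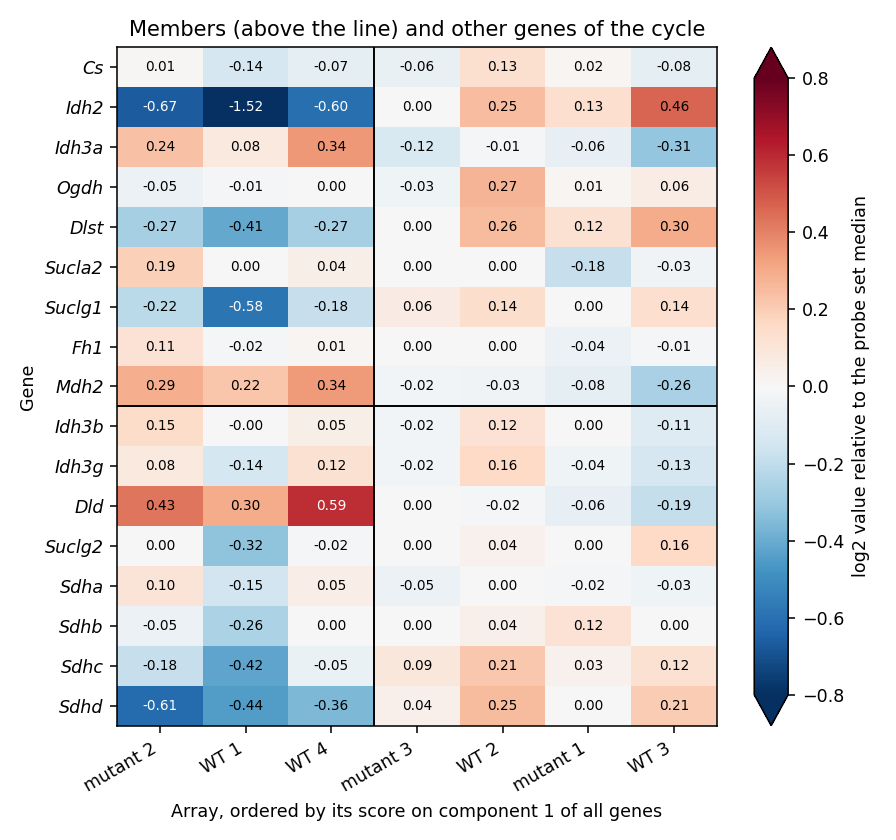
Log2 values relative to the probe set median (colour and printed numbers) for the 9 members above the horizontal line and 8 other cycle genes below it (rows) in each array (columns, ordered by score on the leading component of all genes). The 3 arrays left of the vertical line are low for Idh2, Dlst, Suclg1, Sdhc and Sdhd and high for Idh3a, Mdh2 and Dld, while the other genes shown follow neither order. The colour scale ends at 0.8 in both directions.

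Comparing genotypes within these sets of arrays (sets chosen with the values in view) moved several members in sign, and these within-set values are given with no test. Within mutant replicate 2 and wild-type replicates 1 and 4 the difference was 0.40 for Idh2, 0.073 for Dlst and 0.17 for Sucla2 and Suclg1 each. The mutant side of that set is 1 array. Within the other 4 arrays it was -0.29 for Idh2, -0.22 for Dlst, -0.078 for Sucla2 and -0.11 for Suclg1. With the set as a block, the differences were -0.014 for Idh2, 0.0020 for Suclg1, -0.10 for Dlst, 0.060 for Mdh2 and 0.050 for Idh3a. In this blocked limma fit 0 of 9 members had an unadjusted p under 0.05, where the share over all genes was 5.04% (917 genes), and 0 had an adjusted p under 0.05. The block was drawn from the same values that were then fitted, so these counts are a description and no valid test.

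Marker lists also varied from array to array, in part alongside the members that varied most. The 8 measured of 10 adipocyte markers averaged 0.25, -0.58 and -0.22 in mutant muscle and -1.48, 0.60, 1.60 and -0.0036 in wild-type muscle. Wild-type replicates 1 and 3 were thus the lowest and the highest array for both this list and Idh2, but wild-type replicate 4, low for Idh2, lay near the middle for the adipocyte list. The 10 leukocyte markers averaged 0.30, -0.19 and -0.022 in mutant and -0.50, 0.057, 0.59 and -0.41 in wild-type muscle. In wild-type replicate 3, where Idh3a and Mdh2 were lowest, the general muscle fibre markers averaged -0.40 against -0.032 to 0.089 in the other arrays. That mean was carried by Ryr1 (-1.29), Ttn (-1.26) and Neb (-0.70), the list median was -0.15, and Ckm (-0.022), Mylpf (-0.010) and Mb (0.075) lay near 0. The 14 fast fibre genes averaged -0.43 there against -0.14 to 0.13 in the others. The mean of the 9 measured of 10 fibroblast markers was highest in wild-type replicate 3 (1.06) and mutant replicate 1 (0.79) and ran from -0.27 to 0.095 in the others. The medians of this list were 1.09 and 0.37 in those 2 arrays, so the mean in mutant replicate 1 was carried by part of the list. The part of these markers, of RNA quality or of fibre type in the members' values was not tested.

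The slow fibre list was lowest in wild-type replicate 1 and highest in wild-type replicate 3, as were Idh2 and Dlst, but it was also low in wild-type replicate 2. Myh7, the slow myosin, measured -4.24 in wild-type replicate 1 and -3.19 in replicate 2. In wild-type replicate 2 the 9 members averaged 0.11, the highest of the 7 arrays, and Idh2 measured 0.25. Without these 2 wild-type arrays the differences were -0.11 for Idh2, -0.027 for Suclg1 and 0.063 for Cs.

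**Figure D5:**
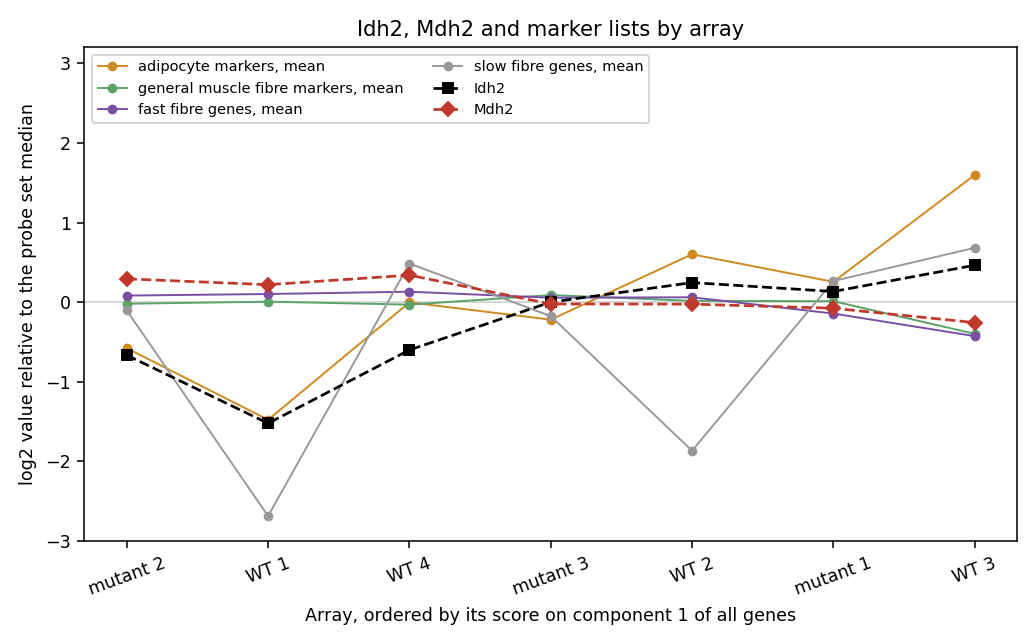
Log2 values of Idh2 and Mdh2 (dashed) and means of 4 marker lists (solid) on the y axis, for each array on the x axis, ordered by score on the leading component of all genes. Lines join points only to guide the eye. Idh2 and the adipocyte mean are lowest in wild-type replicate 1 (-1.52 and -1.48) and highest in wild-type replicate 3 (0.46 and 1.60), while the slow fibre mean is low in wild-type replicates 1 and 2.

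The rest of the cycle and its surroundings were read from lists chosen with the members. Of 10 other cycle genes 8 were measured, 6 with a positive and 2 with a negative difference, 0 past the threshold in either direction, and a median difference of 0.021. Of 13 genes of pyruvate entry 12 were measured, 6 higher and 6 lower in mean, 0 past the threshold, with a median of -0.037. Pdpr, the regulatory subunit of pyruvate dehydrogenase phosphatase, measured 0.18, 0.083 and 0.48 in mutant and -0.44, 0.021, -1.06 and -0.097 in wild-type muscle. The groups did not overlap, with mutant above wild type at a log2 difference of 0.64 ± 0.26 (SE; unadjusted p = 0.0417, limma adjusted p = 1.00, exact permutation p = 0.0857). Without wild-type replicate 3 the difference in Pdpr was 0.42 ± 0.16. Pdp2, a catalytic subunit of that phosphatase in the lowest level class, lay below wild type in every mutant array at a difference of -0.35 ± 0.16, or -0.22 ± 0.10 without wild-type replicate 3, and Dlat, the acetyltransferase core of pyruvate dehydrogenase, differed by -0.10 ± 0.089.

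All 22 genes of anaplerosis, shuttles and cytosolic counterparts were measured, 11 higher and 11 lower, 0 past the threshold, with a median of 0.0038. Aco1, the cytosolic aconitase that doubles as an iron sensor, measured -0.34, -0.20 and -0.25 in mutant and 0.068, 0.12, 0.61 and 0.016 in wild-type muscle. The groups did not overlap, at a log2 difference of -0.47 ± 0.15 (SE; unadjusted p = 0.0176, limma adjusted p = 1.00, exact permutation p = 0.0286, the smallest 35 splits can give). Without wild-type replicate 3, its highest array, the difference in Aco1 was -0.33 ± 0.086. Idh1, the cytosolic isocitrate dehydrogenase, differed by -0.31 ± 0.23 and Me2, a mitochondrial malic enzyme, by -0.27 ± 0.16, and in both the groups overlapped. Over these lists the non-overlapping genes were Pdpr, Pdp2 and Aco1, beside the 0.841% above and 1.2% below of all genes.

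Regulators of oxidative genes also did not pass, with 0 of 11 measured past the threshold, 6 positive and 5 negative, and a median of 0.050. Ppargc1b, a coactivator of mitochondrial biogenesis, differed by 0.21 ± 0.11, Esrrg, an oestrogen-related receptor of oxidative muscle, by 0.41 ± 0.22 and Esrra, its relative, by 0.13 ± 0.14. In all 3 the groups overlapped.

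The genes whose values lay closest to the mean of the 9 members were found by the root mean square log2 difference over the 7 arrays, among 14158 genes that varied at least as much as that mean. They were Omt2b (0.019), Mpv17l2 (0.030), Ifng (0.030), Gm31005 (0.041) and Isca1 (0.042). Of these, only Isca1, an iron-sulphur cluster assembly protein, lay in the highest level class. Mpv17l2 lay between 4 and 8 and the other 3 between 2 and 4. All 5 were lowest in wild-type replicate 1 and highest in wild-type replicate 2, as the member mean was, a likeness that their selection brings with it. The member mean in wild-type replicate 1 was -0.26, and -0.11 without Idh2.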

How the data were processed

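Expression was measured on 7 single-colour Affymetrix arrays, 3 mutant and 4 wild-type, from Trizol-extracted total RNA per the labels' protocols. The deposited values are log2 values centred by the authors so that every one of the 45101 probe sets has a median of 0, as read from the values. The log base was read from the number spacing. GCOS 4.0 was used per the submitters' processing notes. Summary method, scaling and centring step are not given in the sources used here. Centring removed the levels, and arrays give no read depth, so their number limits the precision.

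Level classes were inferred from how finely the deposited numbers are spaced. Of the 45101 probe sets, 5574 lay between 8 and 16, 18081 between 4 and 8 and 21430 between 2 and 4 on the log2 scale. By chance a probe set can be placed a class too high. Probe sets with 1 symbol (34958 of 45101) were named through the platform annotation, with symbols updated by Entrez identifier for 34754. Each gene took the average of those probe sets that fell in its highest class. The test was limma's (version 3.58.1, R 4.3.3, lmFit and eBayes), two-sided, with Benjamini-Hochberg adjustment over 18193 genes, no covariate and no filter, and the script was tested on simulated data. The exact permutation test used all 35 splits of the arrays into 3 and 4. The limma p-values set the difference between groups against the spread between these samples, moderated by the spread of all genes. The members and lists were chosen with earlier results of these data known. Genes named by rule are the members, their probe sets, all other cycle genes, Myh7, the 3 smallest p-values of each remaining pathway list and the 5 genes closest to the member mean. Twnk is named as the gene of Twinkle. The other slow and general muscle fibre markers named were picked outside this rule, with their values in view. Alternatives were quantile normalization, median centring, other probe set and variance rules, age, a replicate block and left-out arrays. Median centring changed no member's difference, since the array medians were already 0, and so was no separate check.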

Additional observations from a re-analysis of the deposited data

Results flagged for a closer look

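In the wild-type group of 4, the gap between the outermost array and its neighbour was unusually wide for 3 of 35 sets of values examined, where chance flags about 1 in 20. Sdhb, the iron-sulphur subunit of succinate dehydrogenase, lay at -0.26 in wild-type replicate 1 and at 0.00, 0.0022 and 0.040 in the other wild-type arrays. The median over the 9 members was 0.13 in wild-type replicate 2 and at most 0.00 in the other wild-type arrays. The Dlst probe set 1430161_at, in the lowest level class, lay at 0.25 in wild-type replicate 4 against -0.037 to 0.00 in the other wild-type arrays. The causes were not tested.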

How the results depend on the processing

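No alternative gave a member or any other gene an adjusted p under 0.05 with limma, and the unadjusted count over all genes ran from 181 (without wild-type replicate 4) to 578 (without mutant replicate 2) when 1 array was left out, against 265. As the members' differences lie near 0, signs turned easily, and the causes were not tested. Quantile normalization gave Dlst 0.030, and the mean over all probe sets gave it 0.010. The former also took Idh3a to -0.11 and Mdh2 to -0.090, and the latter took Ogdh from -0.10 to -0.00017. Age as a covariate gave Idh3a 0.023, Sucla2 0.00083 and Mdh2 0.029, and took Idh2 from 0.18 to 0.043 and Suclg1 from 0.071 to 0.019. The replicate block, which leaves out wild-type replicate 4, gave Idh3a 0.098, Sucla2 0.013 and Mdh2 0.085, with 103 genes unadjusted and 0 adjusted. Leaving out that array with no block gave the same differences, as it must, because a balanced block cannot alter them. These sign changes thus came with leaving out the array. The labels' numbers do not pair the samples, whose deviations correlated at -0.47, -0.29 and 0.13. Without wild-type replicates 1 and 2, Idh2 was -0.11, Suclg1 -0.027 and Mdh2 0.023. Added after seeing the data, a block for the 3 arrays with negative component scores gave Idh2 -0.014, Idh3a 0.050, Sucla2 0.022 and Mdh2 0.060. Those 3 arrays alone gave a member median of 0.11, Idh3a 0.026, Dlst 0.073, Sucla2 0.17 and Mdh2 0.013. The other 4 gave a median of -0.078, Cs -0.049, Idh2 -0.29, Idh3a 0.067, Suclg1 -0.11, Fh1 -0.015 and Mdh2 0.091. The block fit and the fit of the other 4 had 917 and 609 genes with an unadjusted limma p under 0.05. Their sets were drawn from the same values, so these counts are no valid test. The fit of the 3 arrays has 1 mutant array, and only its differences are given.

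Leaving out 1 array at a time gave -0.0049 to 0.084 for Cs, -0.21 to 0.45 for Idh2, -0.12 to 0.098 for Idh3a, -0.13 to -0.038 for Ogdh and -0.14 to 0.093 for Dlst. It gave -0.095 to 0.092 for Sucla2, -0.083 to 0.16 for Suclg1, -0.018 to 0.061 for Fh1, -0.12 to 0.085 for Mdh2 and -0.018 to 0.039 for the member median. With 3 against 4 arrays, centred values and no signal over background, small changes of these transcripts could not be resolved.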
